A study of Mus musculus with 36 samples.

Results

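The effect described here is what 3 lines of mutant mice had in common in the cerebellum: the mean difference between -/- and +/+ arrays over the lines stg, tg and lh. It rests on 18 of the 36 arrays of the series, 9 from -/- and 9 from +/+ mice, with 3 arrays for each line and genotype. The groups, in line order, were stg-/- and stg+/+, tg-/- and tg+/+, and lh-/- and lh+/+. The other 18 arrays hold forebrain RNA of the same lines and genotypes and serve below as a comparison. Each array measured total RNA with 45101 probe sets, short sets of DNA oligonucleotides designed against transcripts. A probe set counted as shared where the mean effect of the 3 lines passed limma's test at a Benjamini-Hochberg adjusted p of 0.05 and the effect had the same sign in all 3 lines, so that no single line could set the direction. The labels give neither age, sex nor strain, and they call the +/+ animals mutant mice as well, so the +/+ groups are taken here as the controls of their own line. Each label names a mouse for its array, but does not say that the mice of a group differ. The p-values therefore measure the spread between these arrays.

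The symbols stg, tg and lh are read as stargazer, tottering and lethargic, which the labels do not spell out. In mice these are recessive mutants with ataxia and absence-like seizures. Each carries a change in a gene of the voltage-gated calcium channel family: Cacng2 in stargazer, whose protein resembles a channel gamma subunit and helps bring AMPA receptors to synapses, Cacna1a in tottering, which forms the pore of P/Q-type channels, and Cacnb4 in lethargic, a cytoplasmic beta subunit. P/Q-type channels trigger transmitter release at the synapses of cerebellar granule cells and carry most of the calcium current of Purkinje cells, the only output neurons of the cerebellar cortex.

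The mutated genes were read first. Cacng2 (1420596_at) had signals of 4.59, 4.72 and 2.43 in stg-/- cerebella, against 473, 841 and 595 in stg+/+ cerebella. In the other two lines it had 540 to 733 in -/- and 436 to 789 in +/+ cerebella, and its effect differed among lines (limma's F test, adjusted p = 1.82e-10). The loss thus stood in 1 line, and the sign condition removed Cacng2 from the shared set although its mean effect passed the test. Cacna1a was not called by any of its 3 probe sets, with mean effects of 0.04 to 0.10 on the log2 scale. Cacnb4 was lower in all 3 lines by each of its 3 probe sets. One of them (1452089_at) read 530, 538 and 616 in stg-/-, against 655, 589 and 787 in stg+/+ cerebella. It read 632, 660 and 583 in tg-/-, against 651, 706 and 843 in tg+/+ cerebella. The lh-/- cerebella had 438, 387 and 388, against 750, 613 and 835 in lh+/+ cerebella, the 1 line in which the groups did not overlap. The mean log2 effects were -0.44, -0.40 and -0.44 (SE 0.08, 0.08 and 0.07; limma, adjusted p 0.00715, 0.00744 and 0.00252). The 1428928_at and 1436912_at sets were not called in the mean of 2 lines without stg, and none of the 3 was called in the mean without lh.

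Of 27022 probe sets tested, 533 had a mean effect at an adjusted p under 0.05 in limma's test, 1.97% of those tested. The sign condition kept 478 of them in 339 named genes, 1.77% of those tested, and 55 had signs that disagreed. The kept probe sets divided into 259 that were higher in the mutants (0.958%) and 219 that were lower (0.81%). Same signs in 3 lines stood in 8061 probe sets, or 29.8% of all tested, whether called or not. The shared changes were mostly small: the median mean effect was 0.44 on the log2 scale among those higher and -0.39 among those lower, with a median SE of 0.08. Their smallest line effect had a median size of 0.21. With 1 probe set per gene, 157 of 12201 genes were shared and higher (1.29%) and 124 shared and lower (1.02%).

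**Figure D1:**
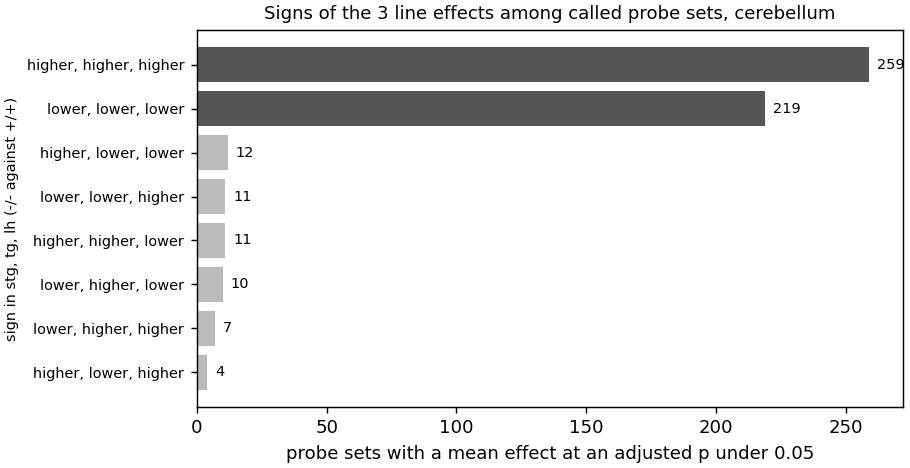
Number of cerebellum probe sets whose mean effect of 3 lines passed limma's test (x axis), for each combination of signs in stg, tg and lh (y axis); dark bars have 1 sign in all lines. The 2 dark bars hold 259 and 219 probe sets, and the 6 light bars 4 to 12 each.

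The lines did not contribute alike. Among the 478 shared probe sets the largest of the 3 effects was that of stg in 254, that of tg in 112 and that of lh in 112. Called on its own in the same fit was the stg effect of 178, the tg effect of 47 and the lh effect of 29, while 252 were called in no single line. Among all probe sets tested, shared or not, the stg effect was called in 352, the tg effect in 155 and the lh effect in 42. Over all probe sets tested, the effects of 2 lines correlated weakly (Pearson's r across probe sets 0.11 for stg and tg, 0.06 for stg and lh, 0.14 for tg and lh), and probe sets are not independent replicates. The choroid plexus signal described below served as a covariate in an alternative chosen after seeing the data. With it 276 probe sets were shared, 253 of them among the 478. In the mean of tg and lh without stg 198 were shared, 140 of them among the 478.

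Stricter conditions left smaller sets. Probe sets called in the mean effect and in each of the 3 means of 2 lines numbered 65, 27 higher and 38 lower, 0.241% of those tested. An unadjusted p under 0.05 in every line with the same sign was reached by 118 probe sets (56 higher and 62 lower, 0.437%), and 117 of these were shared. After Benjamini-Hochberg adjustment of the largest of the 3 limma p-values, 0 passed. The 3 -/- arrays did not overlap the 3 +/+ arrays of their line, in the same direction in all 3 lines, for 141 probe sets (0.522%), of which 130 were shared. All 9 -/- arrays lay on one side of all 9 +/+ arrays for 38 probe sets (0.141%), 13 higher and 25 lower, and all 38 were shared. The effect differed among lines by limma's F test for 85 probe sets (0.315%), 19 of them shared.

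Genes were ranked by the smallest of their 3 line effects, which puts first those whose effect was not small in any line, and the first 15 in each direction are described by role. Of these 30, 11 were called under every one of the alternatives listed at the end in which they were tested, including each array left out and each mean of 2 lines: Inf2, Fxyd6, Homer2, Mapk13, Ly6h, Stap2, Rem2, Necab3, Prag1, Ccdc28b and Gabra6.

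**Figure D2:**
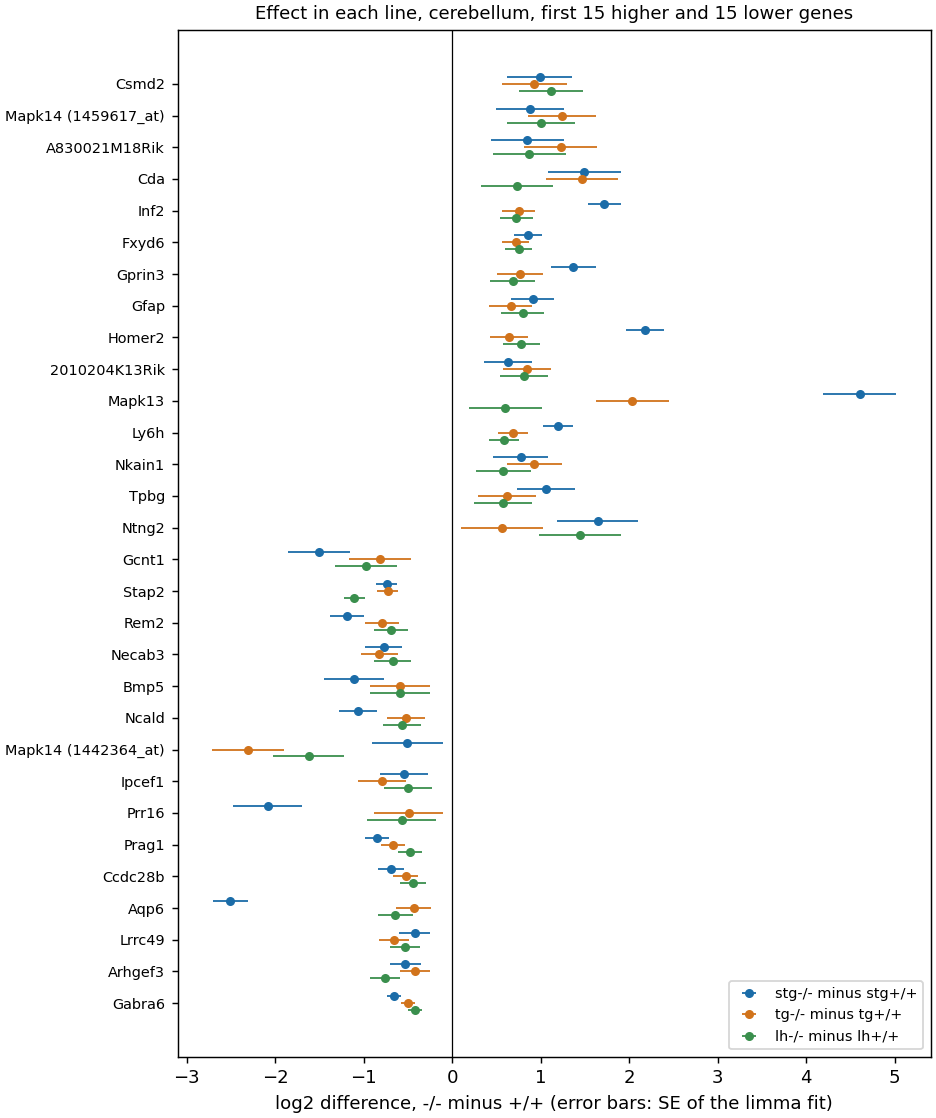
Log2 difference between -/- and +/+ cerebellum in stg, tg and lh (points, x axis) with the SE of the limma fit (bars), for the first 15 higher and the first 15 lower genes ranked by their smallest line effect (y axis). Gabra6 lay at -0.65, -0.50 and -0.42 with short bars, while Homer2, Mapk13 and Aqp6 stood far from the other two lines in stg.

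Gabra6, of the first 15 lower genes, and Scn2a, a called member of a channel list counted below, encode a receptor and a channel. Gabra6 encodes the alpha6 subunit of the GABA-A receptor, which in the cerebellum marks granule cells. Its probe set 1451706_a_at read 1944, 1967 and 1774 in stg-/-, against 2973, 2963 and 3002 in stg+/+ cerebella. It read 2953, 2430 and 2623 in tg-/-, against 3924, 3606 and 3762 in tg+/+ cerebella. In lh-/- cerebella it read 2629, 2565 and 2755, against 3497, 3522 and 3603 in lh+/+ cerebella. Every -/- array lay below every +/+ array, although the highest tg-/- array and the lowest stg+/+ array nearly met. The mean effect was -0.52 ± 0.05 (SE; fold 0.696; limma, adjusted p = 2.04e-06), and a second probe set was lower too (-0.37; adjusted p = 2.21e-04). Scn2a, the pore of a neuronal sodium channel (1427281_at), ran from 453 to 749 with a median of 590 in the 9 -/- cerebella, against 707 to 965 with a median of 805 in the 9 +/+ cerebella. Its groups did not overlap within any line, and the mean effect was -0.49 ± 0.07 (SE; limma, adjusted p = 6.96e-04).

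Ncald, Necab3 and Rem2, of the first 15 lower genes, and Camk4 and Vsnl1, called members of the calcium list counted below, sense, bind or pass on calcium or act on its channels. Camk4, a calcium/calmodulin-dependent kinase abundant in granule cells, read 308, 300 and 313 in stg-/-, against 562, 505 and 501 in stg+/+ cerebella (1441974_at). It read 409, 386 and 398 in tg-/-, against 493, 450 and 516 in tg+/+ cerebella. The lh-/- cerebella had 261, 370 and 316, against 500, 523 and 470 in lh+/+ cerebella. No -/- array reached the lowest +/+ array, the mean effect was -0.57 ± 0.06 (SE; fold 0.673; limma, adjusted p = 3.82e-05), and all 4 Camk4 probe sets tested were shared and lower. The brightest of them (1439843_at) was lower by 0.76 in stg, 0.14 in tg and 0.62 in lh on the log2 scale. That effect differed among lines (F test, adjusted p = 0.0169). Vsnl1, a neuronal calcium sensor (1450055_at), ran from 1475 to 2988 in -/- cerebella with a median of 2408, against 2582 to 3748 in +/+ cerebella with a median of 3232. Its mean effect was -0.55 ± 0.06 (SE; limma, adjusted p = 2.54e-05), with no overlap within a line. Ncald, a calcium sensor of the same family (1417569_at), was lower by 1.57 on the log2 scale in stg, 0.43 in tg and 0.69 in lh, and its effect differed among lines (F test, adjusted p = 0.00588). Necab3, an EF-hand calcium-binding protein, read 52.5 to 83.6 in the 9 -/- cerebella with a median of 71.8, against 89.2 to 144 in the 9 +/+ cerebella with a median of 115. Its groups did not overlap, with a mean effect of -0.76 ± 0.12 (SE; limma, adjusted p = 0.00159). Rem2, a small GTPase that inhibits voltage-gated calcium channels, was lower by 1.19 in stg, 0.80 in tg and 0.69 in lh on the log2 scale (adjusted p of the mean 1.37e-04).

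Stap2, an adaptor protein of kinase signalling, was among the lower genes whose groups lay clearly apart. It read 134, 133 and 131 in stg-/-, against 206, 240 and 225 in stg+/+ cerebella (1451261_s_at). It read 109, 122 and 138 in tg-/-, against 201, 215 and 201 in tg+/+ cerebella. The lh-/- cerebella had 112, 135 and 128, against 248, 288 and 280 in lh+/+ cerebella. The 2 ranges lay apart, the mean effect was -0.86 ± 0.07 (SE; fold 0.551; limma, adjusted p = 9.46e-07), and the other Stap2 probe set was lower as well (-0.69). Prag1, a pseudokinase, and Ccdc28b (1452937_s_at) had mean effects of -0.66 and -0.55. Of the other Ccdc28b probe sets, 1459840_s_at was shared (mean -0.46). Not called were 1442678_at and 1430090_at, with 0.11 and -0.01 in tg. Gcnt1, a glycosyltransferase that branches O-linked sugar chains, ranked first among the lower genes, with log2 effects of -1.50, -0.81 and -0.97 in stg, tg and lh. It was a dim probe set, at 7.25 to 77.0 in -/- and 30.9 to 131 in +/+ cerebella, and those ranges overlapped. Aqp6, an aquaporin, was lower in every line by its ranked probe set. That effect differed among lines, at -2.51 in stg against -0.44 in tg and -0.64 in lh (F test, adjusted p = 0.00202). Its other probe sets showed little in tg and lh. In stg, tg and lh, 1447974_s_at had -1.39, -0.01 and -0.19 and was shared. Not called were 1459982_a_at, at -1.45, -0.05 and -0.10, and 1420035_at, at -0.06, 0.03 and -0.06. A clear decrease of Aqp6 in tg and lh thus rested on the ranked probe set. Bmp5 and Ipcef1 were called in few of the alternatives: 3 of 30 and 7 of 31. Another Bmp5 probe set (1421283_at) had 0.21 in lh and was not called, nor was 1455851_at (mean -0.41). Prr16, Lrrc49 and Arhgef3 completed the lower genes with mean effects of -1.05, -0.54 and -0.57.

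Among the higher genes, Inf2, Fxyd6 and Homer2 passed under every alternative. Inf2, a formin that nucleates and severs actin filaments, read 470, 330 and 503 in stg-/-, against 118, 166 and 106 in stg+/+ cerebella. It read 156, 202 and 170 in tg-/-, against 108, 99.8 and 101 in tg+/+ cerebella. The lh-/- cerebella had 213, 185 and 174, against 129, 127 and 90.6 in lh+/+ cerebella. The stg-/- arrays were far above the rest, yet the groups did not overlap in any line, and the mean effect was 1.06 ± 0.11 (SE; fold 2.09; limma, adjusted p = 1.41e-05). Its second probe set (1432184_a_at) had -0.03 in lh and so did not meet the sign condition. Fxyd6, a regulator of the sodium-potassium pump, ran from 508 to 857 in -/- cerebella with a median of 674, against 244 to 522 in +/+ cerebella with a median of 417. Its 3 line effects, 0.86, 0.72 and 0.75, lay within 1 SE of each other (SE 0.16 each; mean 0.78, adjusted p = 7.26e-05).

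Homer2, a scaffold that ties group I metabotropic glutamate receptors to their calcium stores, was higher in each line but mainly in stg. It read 678, 580 and 807 in stg-/-, against 118, 201 and 138 in stg+/+ cerebella (1424367_a_at). It read 141, 164 and 184 in tg-/-, against 110, 92.0 and 107 in tg+/+ cerebella. The lh-/- cerebella had 200, 164 and 118, against 105, 99.1 and 70.1 in lh+/+ cerebella. Within each line the groups were apart, with log2 effects of 2.18, 0.64 and 0.78, and the effect differed among lines (F test, adjusted p = 0.0328). Ly6h, a membrane-anchored protein of the Ly6 family, had a mean effect of 0.82 ± 0.10 (SE; adjusted p = 8.76e-05) with no overlap within a line. Gprin3 read 84.4 to 210 in -/- cerebella, against 38.2 to 77.0 in +/+ cerebella, without overlap over all 18 arrays (mean 0.94 ± 0.15 SE; adjusted p = 0.00149). Mapk13, the delta form of p38 kinase, was at 173 to 425 in stg-/-, against 4.94 to 13.8 in stg+/+ cerebella. Its log2 effects of 4.61, 2.04 and 0.60 in stg, tg and lh differed among lines (F test, adjusted p = 0.00738).

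Other higher genes rested on dimmer or less steady probe sets. Csmd2, A830021M18Rik, Cda, 2010204K13Rik, Nkain1, Tpbg and Ntng2 had mean effects of 0.75 to 1.23 with SE of 0.16 to 0.27. Cda, cytidine deaminase, read 23.1 to 156 in -/- and 12.2 to 52.1 in +/+ cerebella. A830021M18Rik, Nkain1 and Tpbg lost the call in 20, 18 and 21 of 30 alternatives. Mapk14, the alpha form of p38 kinase, stood on both sides: 1459617_at was higher (mean 1.04) and 1442364_at lower (mean -1.48), while its other 3 probe sets had mean effects of 0.06, 0.13 and -0.18 and were not called. No direction is therefore given for Mapk14. At the threshold, 1700019D03Rik (mean -0.44, adjusted p = 0.0497) and Dab1 (1427308_at, -0.35, 0.0497) lay just inside, and Mog (0.30, 0.0502) and Zw10 (-1.21, 0.0503) just outside. Other Dab1 probe sets disagreed: 1421100_a_at, 1435577_at and 1435578_s_at had 0.19, 0.13 and 0.05 in tg and failed the sign condition. Dab1 1427307_a_at (mean -0.31) was not called.

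**Figure D3:**
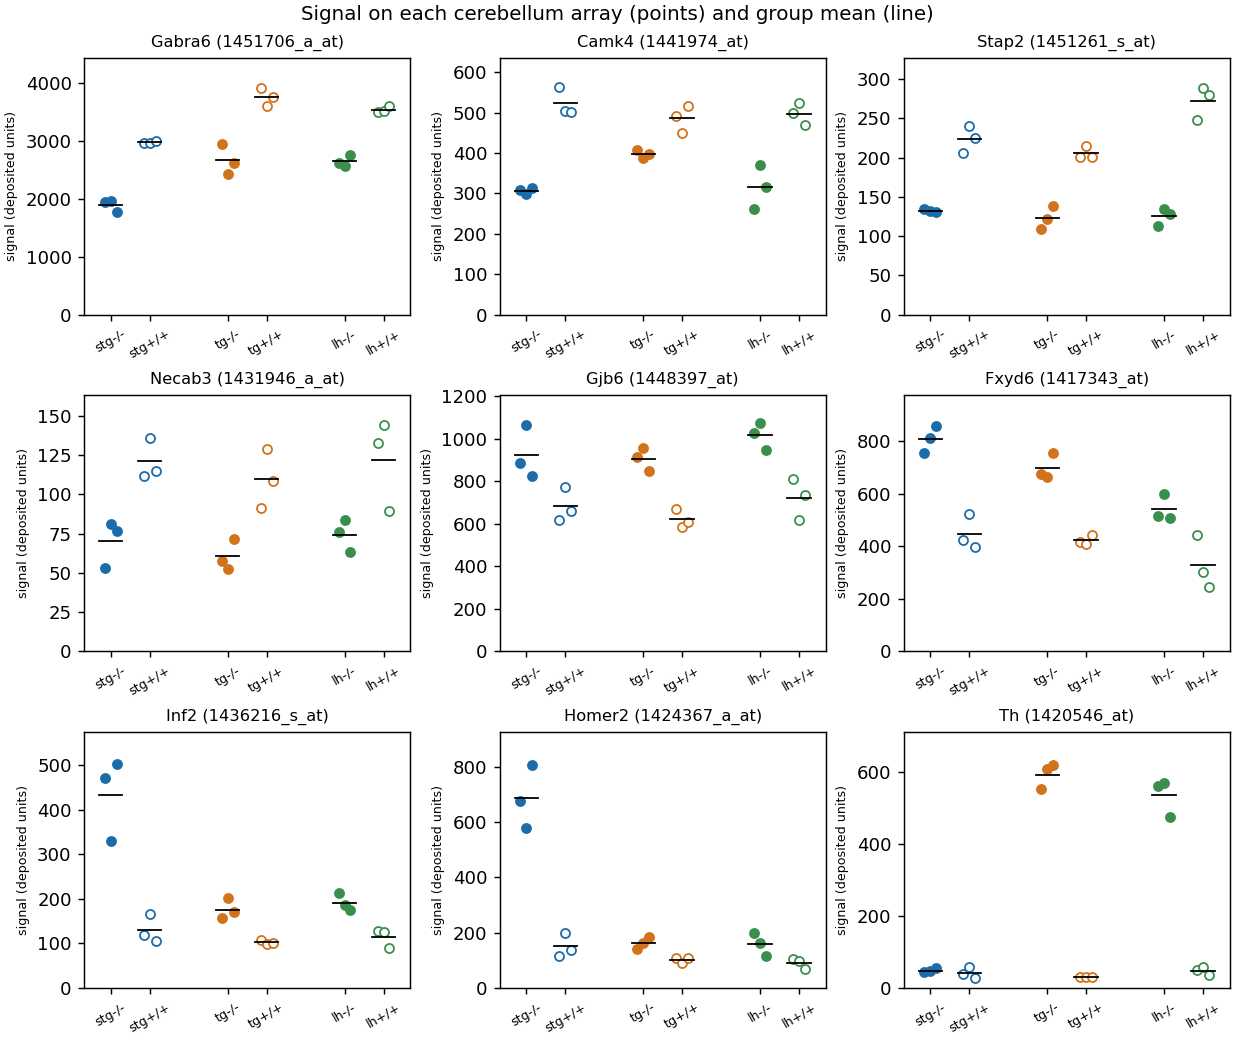
Signal in deposited units on each of the 18 cerebellum arrays (points; filled -/-, open +/+) and group means (lines) for 9 genes, with each -/- group left of its +/+ group. Gabra6, Camk4, Stap2, Necab3 and Gjb6 separate all 9 -/- arrays from all 9 +/+ arrays, whereas Th is high in tg-/- and lh-/- cerebella alone.

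The 65 probe sets called whichever line was left out were looked at after their values were seen. They named 47 genes, and 11 of these had 2 or more probe sets in the set: Ncald, Stap2, Camk4, Gabra6, Olfm3 and Slitrk4 lower, and Homer2, Timp2, Timp3, Lhfpl2 and Marcks higher. Timp2 and Timp3 encode secreted inhibitors of matrix metalloproteinases. Timp3 (1419089_at) ran from 333 to 532 with a median of 397 in -/- cerebella, against 241 to 329 with a median of 287 in +/+ cerebella, without overlap. Its line effects were 0.51, 0.51 and 0.50 (mean 0.50 ± 0.08 SE; limma, adjusted p = 0.00149). Marcks, a substrate of protein kinase C that binds actin and the membrane, was higher by 3 probe sets, with means of 0.54, 0.48 and 0.40. Slitrk4 and Olfm3 encode synaptic and secreted neuronal proteins, and their means ran from -0.55 to -0.37. The kinases Camkk2, which activates Camk4, and Camk1d were in the set with means of -0.49 and -0.56, and each separated all 9 -/- from all 9 +/+ cerebella. Camkk2 (1424475_at) read 299 to 425 in -/- cerebella, against 448 to 592 in +/+ cerebella, and Camk1d (1452050_at) 148 to 203 in -/- cerebella, against 206 to 316 in +/+ cerebella. Of the 65, 10 also differed among lines by the F test.

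Promoters of the first 3 genes in each direction that the RefSeq promoter table holds are shown as the sequences upstream of the genes ranked first by their smallest line effect. Each runs from 250 bases before to 50 after the start of the gene, on the build GRCm38.p6, 5′ to 3′ along the gene. Capitals mark an E-box (CACGTG) or a TATA box (TATAAA, or TTTATA on the other strand). A cyclic AMP response element (TGACGTCA) and an AP-1 site (TGACTCA or TGAGTCA) were searched on both strands too, and none of the 6 windows held one. Mapk14 is shown because the ranking placed it there, with the conflict between its probe sets given above.
Mapk14, chr17:28691092-28691391, + strand: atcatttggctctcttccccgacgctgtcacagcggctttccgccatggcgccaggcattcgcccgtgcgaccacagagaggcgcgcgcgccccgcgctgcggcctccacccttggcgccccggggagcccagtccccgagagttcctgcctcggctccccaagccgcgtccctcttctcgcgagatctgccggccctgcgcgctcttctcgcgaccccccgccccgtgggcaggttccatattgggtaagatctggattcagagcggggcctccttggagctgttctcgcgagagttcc
Cda, chr4:138367906-138368205, - strand: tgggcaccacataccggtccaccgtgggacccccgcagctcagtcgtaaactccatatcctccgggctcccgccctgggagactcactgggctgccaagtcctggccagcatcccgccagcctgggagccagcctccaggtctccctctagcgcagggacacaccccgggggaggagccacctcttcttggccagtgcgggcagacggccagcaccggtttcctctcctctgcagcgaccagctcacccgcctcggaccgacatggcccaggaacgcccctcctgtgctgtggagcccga
Inf2, chr12:112588517-112588816, + strand: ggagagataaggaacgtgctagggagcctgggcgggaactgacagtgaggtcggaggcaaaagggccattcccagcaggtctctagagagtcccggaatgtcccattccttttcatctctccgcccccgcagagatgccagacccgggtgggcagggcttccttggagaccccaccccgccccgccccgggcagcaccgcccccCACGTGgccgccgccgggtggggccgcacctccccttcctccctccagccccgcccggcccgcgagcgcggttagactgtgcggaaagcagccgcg
Gcnt1, chr19:17372795-17373094, - strand: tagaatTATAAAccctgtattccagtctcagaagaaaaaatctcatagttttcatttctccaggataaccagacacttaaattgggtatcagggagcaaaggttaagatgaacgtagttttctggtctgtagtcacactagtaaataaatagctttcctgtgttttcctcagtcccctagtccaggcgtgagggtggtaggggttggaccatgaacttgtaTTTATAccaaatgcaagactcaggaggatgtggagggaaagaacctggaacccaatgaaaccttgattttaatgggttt
Stap2, chr17:56005557-56005856, - strand: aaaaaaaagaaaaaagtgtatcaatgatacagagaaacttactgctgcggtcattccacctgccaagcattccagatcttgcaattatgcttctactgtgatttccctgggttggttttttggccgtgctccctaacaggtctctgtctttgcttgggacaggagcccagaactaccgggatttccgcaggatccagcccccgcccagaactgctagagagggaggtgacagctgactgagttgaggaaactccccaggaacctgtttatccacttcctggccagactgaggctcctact
Rem2, chr14:54475850-54476149, + strand: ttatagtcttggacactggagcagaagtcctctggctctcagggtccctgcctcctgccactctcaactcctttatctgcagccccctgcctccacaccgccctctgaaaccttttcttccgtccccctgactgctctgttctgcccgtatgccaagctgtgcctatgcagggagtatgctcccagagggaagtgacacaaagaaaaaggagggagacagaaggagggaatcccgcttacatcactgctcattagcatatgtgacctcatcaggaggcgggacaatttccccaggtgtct
The windows shown for the higher genes, Mapk14 among them, had 68.3% to 69.7% G and C, and those for the lower genes 40.7% to 54.7%. The share of G and C was not counted for the tested genes, so these values describe the windows shown alone. The Inf2 window held an E-box 46 bases before the start, and the Gcnt1 window TATA boxes 29 and 244 bases before it. In the table's first entry for each gene, 154 of 190 shared higher genes, 120 of 150 shared lower genes and 9868 of 12201 tested genes had a promoter. A cyclic AMP response element stood in 4 of the higher (2.60%), 9 of the lower (7.50%) and 323 of the tested windows (3.27%). E-boxes were in 10 of the higher, 12 of the lower and 1003 of the tested windows, AP-1 sites in 6, 2 and 307, and TATA boxes in 14, 6 and 675, in the same order. Over all 27025 genes of the table the shares were 1.88%, 7.24%, 5.17% and 14.2% for the cyclic AMP response element, the E-box, the AP-1 site and the TATA box. A match of letters is a description and not a site of binding.

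Gene lists were counted with 1 probe set per gene, the brightest, against 32.1% of all genes with the same sign in 3 lines and 2.30% of all genes shared. The values of a named gene can come from another of its called probe sets, mostly the one with the largest smallest line effect. Of 18 calcium channel subunits measured, Cacna1d and Cacna1e, the pores of an L-type and an R-type channel, were higher (means 0.47 and 0.34) and Cacnb4 was lower. Cacna1d ran from 198 to 447 in -/- cerebella, against 167 to 249 in +/+ cerebella, and Cacna1e from 517 to 826 in -/- cerebella, against 379 to 635 in +/+ cerebella. The ranges of both overlapped, and the Cacna1e call was lost in 15 of 31 alternatives. Another Cacna1d probe set (1428051_a_at) had a mean of 0.003 with signs that disagreed, and was not called. Of 28 genes of calcium buffering, release and extrusion, 4 were lower (Vsnl1, Camk4, Ncald and Slc8a1, a sodium-calcium exchanger at -0.33), 1 was higher, and the list had a median of -0.09. Among 29 sodium, potassium and HCN channels, 4 were lower and 0 higher (3 higher at an unadjusted p under 0.05 in limma's test), with a median of -0.10. They were Scn2a, Scn2b, a sodium channel beta subunit (-0.23), Kcnd2, an A-type potassium channel, and Kcnc1.

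Of 31 genes of the release machinery, 3 were lower and 2 higher. With line by series of sample records as a block, and in the fit blocked on replicate number, 8 and 9 were lower and 2 higher, and at an unadjusted p under 0.05 in limma's test with 1 sign in all lines 11 were lower and 2 higher. Snap25, Unc13c and Syt2, which dock, prime and trigger synaptic vesicles, were lower, with the Syt2 mean at -0.32 and its groups apart within each line. Higher were Syn3 and Slc17a6, a vesicular glutamate transporter (1418610_at, mean 0.52 ± 0.09 SE; adjusted p = 0.00490). Of 29 glutamate receptor genes and partners, Homer2 and Grm5, a group I metabotropic receptor, were higher and 0 lower (2 lower at an unadjusted p under 0.05 in limma's test). The Grm5 mean was 0.64 ± 0.15 (SE; adjusted p = 0.0265), and its call was lost in 12 of 30 alternatives. Of 25 genes of nitric oxide and cyclic nucleotide signalling, Nos1, Pde9a and Adcy5 were higher and Adcy1 was lower. Nos1, neuronal nitric oxide synthase (1429887_at), read 1475, 1291 and 1425 in stg-/-, against 447, 473 and 459 in stg+/+ cerebella. It read 529, 491 and 495 in tg-/-, against 362, 290 and 313 in tg+/+ cerebella. In lh-/- cerebella it had 469, 480 and 386, against 397, 356 and 284 in lh+/+ cerebella, where the groups overlapped by 1 array each. Nos1 was called in every alternative (mean 0.87 ± 0.07 SE; adjusted p = 9.46e-07), and its effect differed among lines (F test, adjusted p = 0.00349). Another Adcy5 probe set (1447696_x_at) had a mean of -0.03 and was not called.

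Of 33 activity-regulated genes, Bdnf, Dusp5 and Ier2 were lower and Gadd45g was higher. Bdnf, a neurotrophin (1422168_a_at), had log2 effects of -2.44 in stg, -0.75 in tg and -0.32 in lh, and was not called in the mean without stg. Its brightest probe set (1422169_a_at) had -1.48, -0.92 and -0.19. Of 22 neuropeptide, granin and secreted factor genes, Chgb, a granin of dense-core vesicles (mean -0.48), Fgf12 and Bdnf were lower and Pcsk1, a prohormone convertase, was higher. No gene of the glucocorticoid response (13), circadian clock (17), heat shock and unfolded protein response (16) or interferon and antigen presentation (14) lists was shared by its brightest probe set. These lists had median mean effects of 0.24, 0.17, -0.02 and 0.28. At an unadjusted p under 0.05 in limma's test with 1 sign in all lines, they had 4, 4, 0 and 3 members, all of them higher, against 11.8% of all genes. With line by series of sample records as a block, 2 glucocorticoid, 2 clock and 1 interferon gene were shared and higher, and in the fit blocked on replicate number 4, 2 and 1 were, while the heat shock list stayed at 0 in both. A second probe set of Per3, a clock gene, was higher (mean 0.59), while another (1460662_at) had a mean of -0.05 and was not called.

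A few genes show why a mean is not yet a shared effect. Th, tyrosine hydroxylase, the first enzyme of catecholamine synthesis, met the sign condition with the largest mean of all, 2.60 ± 0.11 (SE; adjusted p = 1.61e-10). It read 551, 606 and 617 in tg-/-, against 31.3, 30.5 and 29.9 in tg+/+ cerebella, and 562, 568 and 475 in lh-/-, against 49.1, 57.2 and 37.2 in lh+/+ cerebella. In stg-/- cerebella it read 44.9, 46.4 and 54.2, against 39.6, 58.9 and 29.0 in stg+/+ cerebella, which overlapped, and the effect differed among lines (F test, adjusted p = 7.27e-07). Tac1, the substance P precursor, was higher in tg (2.40; adjusted p in the line 1.92e-04) and lh (1.69; 0.0115), and its -0.01 in stg put it among the 55 with disagreeing signs. The same held for Hrk, a pro-apoptotic BH3 gene, at 1.59 in tg, 1.67 in lh and -0.42 in stg. Car4, a carbonic anhydrase (1418094_s_at), and Sphkap, an anchoring protein of protein kinase A, had -1.12 and -0.80 in stg with 0.02 and 0.07 in tg. By a brighter probe set (1448949_at) Car4 was shared, with -1.04 in stg, -0.05 in tg and -0.36 in lh. That effect differed among lines too (F test, adjusted p = 0.0328).

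Markers of cell types were read in the same way, as the arrays measured whole tissue, in which fewer cells of a type and less RNA per cell cannot be told apart. Of 20 granule cell markers 5 were shared and lower (Gabra6, Neurod1, Chn2, Kcnd2 and Cadps2), 0 higher, and their median mean effect was -0.14. Neurod1, a transcription factor of granule cells, lost the call in 21 of 31 alternatives. The summed granule cell signal was 39069 to 47499 in the 9 -/- cerebella, against 43298 to 50794 in the 9 +/+ cerebella. The difference was -0.19 on the log2 scale and lower in 3 of 3 lines (two-sided exact permutation within lines, p = 2.5e-04, adjusted over 16 measures 0.00267). Of 21 Purkinje cell markers 0 were shared by their brightest probe set, with a median of 0.04; at an unadjusted p under 0.05 in limma's test with 1 sign in all lines, 2 were higher and 1 lower. Their summed signal was 62850 to 78628 in -/- cerebella, against 58939 to 74290 in +/+ cerebella (adjusted p = 0.549 in the exact permutation test). The sums were higher in stg and tg and lower in lh, and on quantile normalized values, chosen after seeing the data, the difference was 0.07 with an unadjusted exact permutation p of 0.002. No marker of either cell type had a mean below the constant added before log2.

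Some markers of astrocytes and microglia were higher. Of 19 astrocyte and Bergmann glia markers 4 were shared and higher, Gfap, Gjb6, Gja1 and Agt, and 0 lower. Gjb6 encodes the gap junction protein connexin 30. It read 887, 1067 and 823 in stg-/-, against 618, 772 and 660 in stg+/+ cerebella, and 914, 956 and 850 in tg-/-, against 671, 584 and 607 in tg+/+ cerebella. In lh-/- cerebella it had 1025, 1073 and 949, against 812, 618 and 733 in lh+/+ cerebella. All 9 -/- arrays were above all 9 +/+ arrays (mean 0.49 ± 0.07 SE; fold 1.41; limma, adjusted p = 4.02e-04). Gja1, connexin 43 (1415801_at), was separated too, though barely, at 497 to 621 in -/- cerebella and 336 to 497 in +/+ cerebella (mean 0.39 ± 0.07 SE). The probe sets of Gja1 differed: its brightest (1437992_x_at) had a mean of 0.22 (adjusted p = 0.0302), 1438945_x_at was shared at 0.23, and 1415800_at and 1438650_x_at had -0.02 and -0.25 in stg and were not called, nor was 1438973_x_at (mean 0.01). Gfap, the intermediate filament of astrocytes (1426509_s_at), read 197 to 632 in -/- cerebella with a median of 283, against 139 to 268 in +/+ cerebella with a median of 159 (mean 0.79 ± 0.14 SE; adjusted p = 0.00424). The summed astrocyte signal was 31491 to 35909 in -/- cerebella, against 29589 to 31740 in +/+ cerebella, a log2 difference of 0.10 and higher in 3 of 3 lines (exact permutation p = 5e-04, adjusted 0.00267).

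Of 12 microglia markers tested all 12 were higher in all 3 lines, with a median of 0.32, and C1qa and C1qc, subunits of complement C1q, passed the test. C1qa read 148 to 254 in -/- cerebella with a median of 208, against 117 to 186 in +/+ cerebella with a median of 149, and its groups did not overlap within a line (mean 0.34 ± 0.08 SE; limma, adjusted p = 0.0205). The other 10 markers had means of 0.17 to 0.43 and were not called. The summed microglia signal was 1842 to 2492 in -/- cerebella, against 1682 to 2000 in +/+ cerebella, a log2 difference of 0.31 and higher in 3 of 3 lines (exact permutation p = 5e-04, adjusted 0.00267). By another probe set C1qb was higher too (1417063_at, mean 0.48, adjusted p = 0.0240), whereas its brightest was not called. Another 3 markers were too dim to be tested, and their ranges overlapped: Aif1 had medians of 21.7 in -/- and 25.7 in +/+ cerebella, Itgam 20.1 in -/- and 19.1 in +/+ cerebella, and Trem2 13.4 in -/- and 6.55 in +/+ cerebella. Of 16 oligodendrocyte markers, Mobp was higher (mean 0.24).

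**Figure D4:**
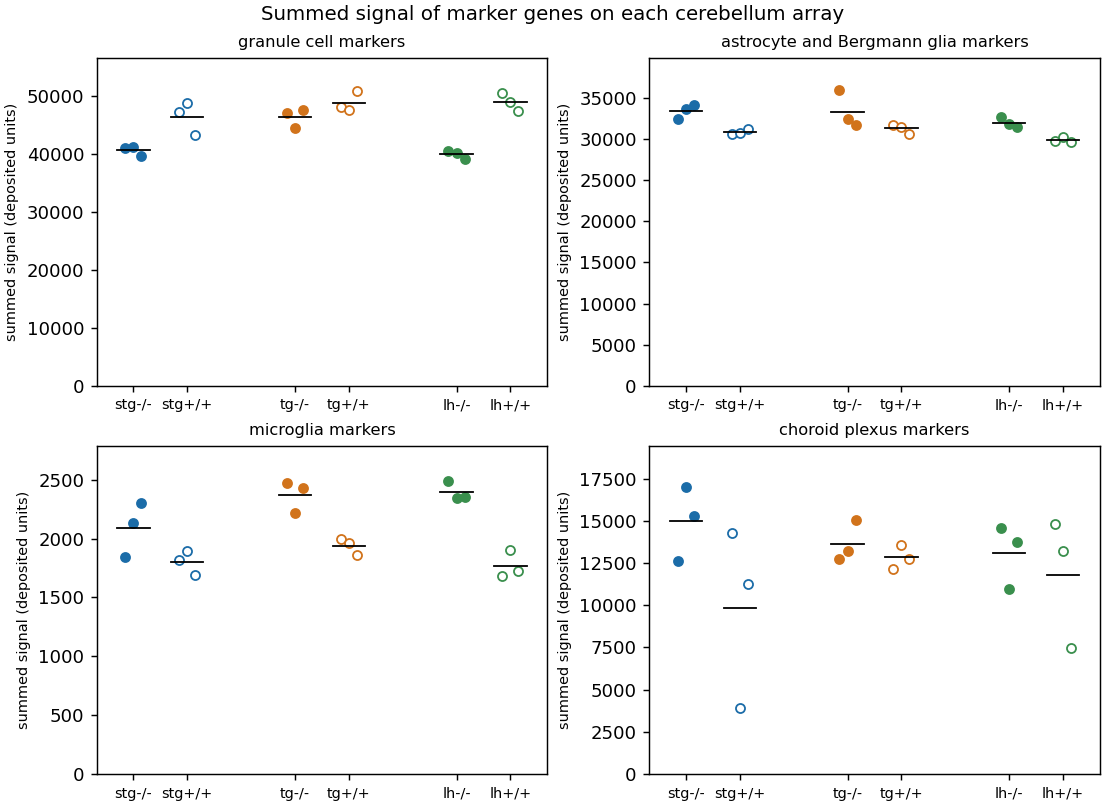
Summed signal in deposited units of 4 lists of marker genes on each cerebellum array (points; filled -/-, open +/+) with group means (lines), each -/- group left of its +/+ group. Granule cell sums were 39069 to 47499 in -/- and 43298 to 50794 in +/+ cerebella, and the choroid plexus sum was 3931 in 1 stg+/+ array.

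Signals of choroid plexus and pituitary markers also differed between arrays. Of 11 choroid plexus markers all 11 had higher means in the -/- groups of all 3 lines, with a median of 0.85, and 0 were called (limma, adjusted p 0.142 to 0.558), while 9 had an unadjusted p under 0.05. Their summed signal was 10971 to 17010 in -/- cerebella, against 3931 to 14809 in +/+ cerebella, with stg+/+ replicate 2 at 3931 and lh+/+ replicate 3 at 7454 (exact permutation p adjusted over 16 measures 0.334). Ttr made up most of this sum, with medians of 11736 in -/- and 11612 in +/+ cerebella, while no other marker exceeded 641. The sum therefore mostly followed Ttr and not the list as a whole. Transcripts of the pituitary hormone gene Prl were high on stg+/+ replicates 1 and 2 and lh+/+ replicate 3, at 108, 247 and 297, against 1.46 to 56.8 on the other 15 cerebellum arrays. Gh, another pituitary hormone gene, read 126 on stg-/- replicate 3, against 74.4 and 230 on stg+/+ replicates 1 and 2 and 90.1 on lh+/+ replicate 3, so pituitary transcripts were not confined to +/+ arrays. Leaving out the 3 arrays high in Prl left stg+/+ with replicate 3 alone, and fewer probe sets were shared. The count of that fit is not given, as 1 array shows no spread. Endothelial, interneuron, brainstem, forebrain and red blood cell markers did not pass the exact permutation test, and the forebrain markers Lhx2 and Dlx1 had medians of 1.60 and 1.09 in -/- and 1.06 and 1.01 in +/+ cerebella. With the choroid plexus sum as a covariate, 89 of the 100 probe sets with an unadjusted p under 0.05 in every line were among the 118 above, Gabra6, Camk4, Stap2, Inf2, Fxyd6 and Gjb6 stayed called, and Agt, Gadd45g, Scn2b and Grm5 were no longer called. In that fit 2 astrocyte markers were higher and 1 lower, 3 granule cell markers were lower, 2 of the sodium, potassium and HCN channels were lower, and 2 microglia markers were higher with a list median of 0.36. The choroid plexus list still had a median of 0.31 in that fit, so the covariate did not take out all of its signal. The part of choroid plexus, pituitary, granule cell, astrocyte and microglia RNA in the single gene results was not tested otherwise.

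The forebrain showed little of this. There 4 probe sets had a mean effect past the test (0.0148%; 1216 at an unadjusted p under 0.05 in limma's test), 3 of them with 1 sign in all lines (0.0111%), and 26.2% of all probe sets had the same sign in 3 lines. The leading ones were 2 probe sets of Cacng2, with means of -1.83 and -1.21 set by stg. Of the 478 probe sets shared in cerebellum, 457 entered the forebrain fit: 290 had the sign of the cerebellum, 167 the opposite sign, and 0 were called. Of the 457, 38 had the sign of the cerebellum at an unadjusted p under 0.05 in limma's test. Over all 27022 probe sets the 1216 above, of either sign, passed that limit. The share of agreeing signs over all probe sets is not given here. The mean effect differed between the tissues for 73 probe sets (0.27%) in a fit over all 36 arrays, and 63 of these were among the 471 shared probe sets tested. As the 471 were chosen by their cerebellar effect, a difference in that direction followed from the choice, and the p-values of the named genes below are given as a description. Among them Th had means of 2.60 in cerebellum and -0.09 in forebrain (adjusted p of the difference 6.85e-13). Inf2 had 1.06 in cerebellum and -0.23 in forebrain (1.37e-06), Homer2 1.20 and -0.18 (3.79e-06), Ncald -0.90 and 0.07 (1.10e-07), Nos1 0.87 and -0.02 (2.38e-06), and Vsnl1 -0.55 and -0.01 (0.00184). Homer2 was expressed in forebrain, at 253 to 413 in -/- and 278 to 462 in +/+ arrays. For Gfap, Gja1, Gjb6 and Gprin3 the difference between tissues did not pass (adjusted p 0.845, 0.937, 0.135 and 0.107). Gabra6 and Stap2 1451261_s_at were below the filter in forebrain.

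**Figure D5:**
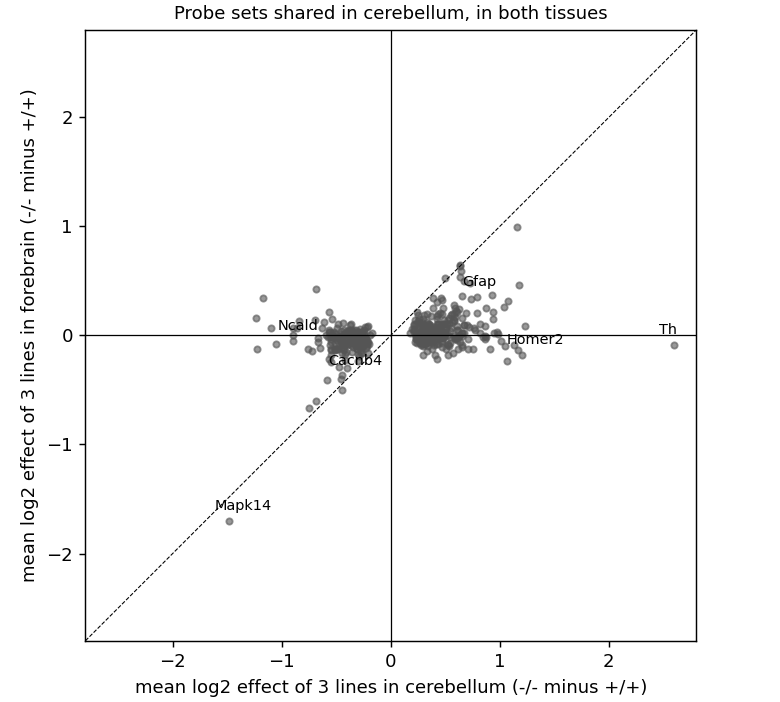
Mean log2 effect of 3 lines in cerebellum (x axis) against the mean effect in forebrain (y axis), both -/- minus +/+, for the 457 probe sets shared in cerebellum that entered the forebrain fit; the dashed line marks equal effects. Most points lie near 0 in forebrain, and Mapk14 (1442364_at) lies below the dashed line, at -1.48 in cerebellum and -1.70 in forebrain.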

How the data were processed

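Intensities on a linear scale were deposited, with 1 value for each probe set on an array and without detection calls. The steps from the authors' scans to these intensities are not given in the sources used here. Values were already scaled alike, since a mean trimmed by 2% at both ends came to 150 for each array. With 3 arrays in each group, it is their number that sets the precision.

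From the intensities log2 of the signal plus 2.98, the 10th percentile of all values, was computed, which shrinks changes of dim probe sets. The 64 control probe sets were left out, and a probe set entered a fit when its mean over the arrays exceeded the 40th percentile. The medians of the arrays ran from 5.39 to 5.71, so no quantile normalization was applied. The probe table gave 1 symbol to 34958 probe sets, several to 932 and none to 9211. Symbols were updated by Entrez ID through the annotation of GRCm38.p6 for 34754, and only probe sets with 1 symbol were named.

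limma 3.58.1 in R 4.3.3 fitted a mean per group over the 18 cerebellum arrays with an intensity trend. The contrasts were the effect of each line, the mean of the 3 lines, the means of 2 lines and the F test of a difference among lines. P-values were two-sided and adjusted by the Benjamini-Hochberg method over all probe sets tested. The forebrain was fitted alike, and a fit over 36 arrays gave the difference between tissues. Summed marker signals and signs of RNA quality were tested by exact permutation within lines. The fits were tested on simulated data.

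Genes named are the mutated genes, the first 15 higher and 15 lower ranked by the smallest line effect, called members of the lists (at most 4 each), those with the smallest p among disagreeing signs and among differences between lines, and the nearest at the threshold. Genes of the set called in every mean of 2 lines were named after their values were seen. The members, lists and rules were chosen with earlier results of these data known. RefSeq gave the promoters, the first entry per gene. Alternatives were other filters, quantile normalization, a constant of 1, no trend, array weights, blocks, each array, each line and 3 arrays left out, and, added after seeing the data, a choroid plexus covariate and quantile normalization of the summed marker signals. Same-numbered arrays of a line were checked for pairing by the correlations of their deviations. These were 0.156, 0.188 and 0.380 in stg, 0.292, 0.040 and 0.244 in tg, and 0.225, 0.095 and 0.333 in lh. Only replicate 2 of tg (0.040) and replicate 2 of lh (0.095) were under the limit of 0.1. Because of these the numbers were not read as pairs.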

Additional observations from a re-analysis of the deposited data

Results flagged for a closer look

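Some described genes stood out because the effect of the mutation was not equal in the 3 lines, by limma's F test of the difference itself. The adjusted p-values of that test were Aqp6 (1441978_at) 0.00202, Cacng2 (1420596_at) 1.82e-10, Cacng2 (1440210_at) 0.00129, Car4 (1418094_s_at) 0.0093, Homer2 (1424367_a_at) 0.0328, Hrk (1439854_at) 0.0118, Kcnk2 (1449158_at) 0.00397, Mapk13 (1448871_at) 0.00738, Ncald (1417569_at) 0.00588, Nos1 (1429887_at) 0.00349, Sox4 (1433575_at) 0.00363, Sphkap (1454926_at) 0.00349, Tac1 (1416783_at) 0.0144 and Th (1420546_at) 7.27e-07. In Aqp6, Homer2, Kcnk2, Mapk13, Ncald, Nos1 and Sox4 all lines had 1 sign and stg the largest effect, in Th all lines had 1 sign and tg the largest, and in the others the signs disagreed.

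Other genes stood out because the mean effect of the lines in cerebellum differed from that in forebrain, by limma's test over all 36 arrays. Among genes higher in -/- cerebella the adjusted p-values of the difference were 2010204K13Rik (1421498_a_at) 0.0346, Adcy5 (1455296_at) 0.0164, Cacna1d (1427974_s_at) 0.0285, Fxyd6 (1417343_at) 0.00658, Grm5 (1455272_at) 0.014, Homer2 (1424367_a_at) 3.79e-06, Hrk (1439854_at) 0.021, Inf2 (1436216_s_at) 1.37e-06, Kcnk2 (1449158_at) 0.000511, Ly6h (1422625_at) 0.0126, Nos1 (1429887_at) 2.38e-06, Nos1 (1438483_at) 4e-04, Sox4 (1433575_at) 0.000431, Tac1 (1416783_at) 2.91e-05 and Th (1420546_at) 6.85e-13. Among genes lower in -/- cerebella they were Arhgef3 (1424250_a_at) 0.0164, Bdnf (1422168_a_at) 0.000863, Camk4 (1441974_at) 0.0284, Chgb (1415885_at) 0.0141, Ncald (1417569_at) 1.1e-07, Prag1 (1442434_at) 0.00832, Rem2 (1448860_at) 0.00489, Scn2a (1427281_at) 0.0422 and Vsnl1 (1450055_at) 0.00184. These genes were chosen by their effect in cerebellum, so the direction of the difference followed from that choice.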

How the results depend on the processing

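The count of 478 shared probe sets became 312 with no intensity trend and 852 with line by series of sample records as a block. It became 256 without the 3 arrays high in Prl and 276 with the choroid plexus covariate. With stg left out it was 198, and at an adjusted p of 0.01 it was 189. Of the counts given, 300, 477, 253, 140 and 189, in that order, were also among the 478. A fit with the replicate number as a replicate block gave 1027 shared probe sets, 221 with an unadjusted p under 0.05 in every line (118 without it) and 480 that differed among lines (85 without it). The block by series gave 184 and 206. Of the 9 same-numbered pairs 8 correlated best with their own number, a hint from the data and not the design. The count that differed among lines was 47 with no trend, 180 with array weights and 41 without the 3 arrays. Leaving out 1 array gave 321 to 455 shared, 90 to 125 passing in every line, 47 to 92 differing among lines (lowest without tg+/+ replicate 2) and 0 to 4 shared in forebrain, where the count of 3 became 1 with no filter and 6 with the block by series. Of the 478, 238 were shared with every array left out in turn. The uncalled mean effect of Cacna1a (1430408_at) changed sign to -0.00413 without tg+/+ replicate 1, -0.0399 without tg-/- replicate 2 and -0.21 without stg. With 1 array left out it ran from -0.0399 to 0.147. That of Cacna1a (1450510_a_at) became -0.0217 without stg+/+ replicate 3 and reached 0.18 without lh-/- replicate 3. That of Cacng2 (1453363_at) became 0.0209 without the 3 arrays and 0.293 without stg. The causes were not tested. Medians of the lists under quantile normalization, a constant of 1, array weights, both blocks and the covariate kept their sign for granule cells (-0.14 to -0.12), astrocytes, microglia (0.28 to 0.36) and choroid plexus (0.31 to 0.87). The summed signals of Purkinje cell, oligodendrocyte and choroid plexus markers passed the exact permutation test on quantile normalized values, an alternative chosen after seeing the data, with differences of 0.07, 0.10 and 0.35 (adjusted p 0.006, 0.0156 and 0.049 over 12 lists). Without detection calls, the lowest detectable signal is unknown.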

Other observations

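A few shared probe sets had effects of about the same size in both tissues, mostly from 1 line, and were noticed after the values were seen. Slc15a2, a peptide transporter (1447808_s_at), had log2 effects of 0.83, 2.38 and 0.25 in stg, tg and lh cerebella, and a mean of 1.16 in cerebellum and 0.999 in forebrain. Mtm1, the lipid phosphatase myotubularin (1434278_at), had 1.53, 0.07 and 0.59, with means of 0.73 in cerebellum and 0.48 in forebrain. Supt16, a histone chaperone subunit (1449578_at), had -0.20, -1.45 and -0.59, with means of -0.75 and -0.67. None of these was called in forebrain by limma (adjusted p 0.786, 0.308 and 0.789).

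Sex-linked transcripts read the same in both genotypes of each line. Xist was at 3645 to 4006 on replicates 1 and 2 of stg-/- and of stg+/+ cerebella. It was at 3384 on lh-/- replicate 3 and 2813 on lh+/+ replicate 3, and at 14.4 to 36.3 on the other 12 arrays. High and low Xist thus went by replicate number in both genotypes of a line, and the main fit held no term for sex. In stg and lh they also divided as the series of sample records did. The block of line by series therefore also parted high from low Xist, and sex and series cannot be told apart there.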
